A study of Mus musculus with 54 samples.

Results

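Cholesterol synthesis and sterol control are described here through 31 genes of the 47729 counted in mouse cXEN cells, a cultured line of extraembryonic endoderm stem cells. The genes were chosen by function, and each was found in the count files by its Ensembl ID. They comprise 8 enzymes of the mevalonate pathway (Acat2, Hmgcs1, Mvk, Pmvk, Mvd, Idi1, Fdps and Ggps1) and 11 of the sterol pathway (Fdft1, Sqle, Lss, Cyp51, Tm7sf2, Msmo1, Nsdhl, Hsd17b7, Ebp, Sc5d and Dhcr7). The other 12 are 5 genes of SREBP control (Insig1, Insig2, Srebf1, Srebf2 and Scap), 4 of LXR control and export (Nr1h2, Abca1, Abcg1 and Mylip) and 3 of sterol transport (Stard4, Npc1 and Npc2). All 31 passed the filter on low counts, which left 14625 genes for testing.

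The study followed the loss of Gata6, Sox17 and FoxA2, transcription factors of this lineage, and the response to BMP4, with RNA-seq in 40 libraries, 2 for each of 20 groups. In the Gata6-FKBP and Sox17-FKBP lines, called the Gata6 line and the Sox17 line below, the factor carries a degron tag through which 500 nM dTAGV1 marks the protein for destruction. Both lines were sampled after 6, 24, 48, 72 and 96 h of dTAGV1 and at 0 h with DMSO. Derivatives of both lines with FoxA2-/- genotype were sampled after 48 h of dTAGV1 and at 0 h. A further series, whose titles say XEN and whose genotype label is Gata6-FKBP, received 25 ng/ml BMP4 in serum-free N2B27 for 24 or 72 h, and its 0 h cells stood in N2B27 with 1% serum without BMP4. Parental cXEN cells carry no tag and no treatment. All groups other than the BMP4 series are described as grown in Advanced RPMI with 15% serum. Protein was not measured, so the loss of Gata6 and Sox17 cannot be read from these RNA counts, and the labels do not say whether a line is 1 clone or whether replicates are separate cultures. P-values therefore measure only the spread between these libraries, which may be technical.

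Cells make cholesterol from acetyl-CoA by way of mevalonate, farnesyl diphosphate, squalene and lanosterol. When sterol in the membrane of the endoplasmic reticulum is low, Scap carries the SREBP proteins to the Golgi, where they are cut and released to switch on the genes of synthesis. When sterol is high, Insig proteins hold Scap back, and oxidised sterols activate LXR receptors, which raise the exporters Abca1 and Abcg1. Insig1 is itself a known SREBP target gene, and Srebf1 and Mylip are known LXR targets. Extraembryonic endoderm lines the yolk sac and passes nutrients, lipid among them, to the embryo.

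Libraries held 16.2 to 42.5 M reads in genes, and reads outside genes numbered 3.99 to 10.4 per 100 reads in genes. Levels are given as counts per 1000000 (CPM) of each library, as first and second replicate, and changes as log2 change ± standard error from edgeR's quasi-likelihood test. A gene is called where its p-value, adjusted by the Benjamini-Hochberg method over the 14625 genes, lies under 0.05. In every comparison of 2 groups below, each member called had both libraries of one group above both of the other. The replicates of BMP4 at 24 h and of the Sox17 line at 24 h lay farthest apart, at 57.3 and 38.9 times the variance that counting alone gives. That ratio is a mean over genes and grows with the count. Gata6 RNA averaged 314 CPM after 48 h of dTAGV1 and 269 CPM at 0 h in the Gata6 line, and Sox17 RNA 243 CPM after 48 h and 265 CPM at 0 h in the Sox17 line, which does not bear on the proteins. Of 10 defining markers of extraembryonic endoderm, all were present in each group, but Col4a1 averaged 0.984 to 4.29 CPM in the 8 groups of the Sox17 line and its mutant, against 1416 CPM in the untreated Gata6 line. Since these are bulk RNA samples, fewer cells of a type and less RNA per cell cannot be told apart.

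The members differed in how far they ranged over the 20 groups. Abcg1, an exporter that loads sterol onto lipoprotein particles, ranged most, with 26.1 ± 1.06 CPM in the Gata6 line at 72 h and 0.157 ± 0.059 CPM in the untreated FoxA2 mutant of the Sox17 line (mean ± SD, n = 2 each). Mylip and Insig1 followed, with highest over lowest group means of 22.1 and 19.3 times. Insig2, the steadier relative of Insig1, ranged least, at 1.80 times, next to Nr1h2, which encodes an LXR receptor, at 2.00 times. In 17 of 31 members the highest mean was that of BMP4 at 24 h, a group whose libraries lay far apart. Over the 20 group means of log2(CPM + 0.5), Acat2 and Mvd had the closest pattern, with Pearson's r = 0.97. Other close pairs were Fdps with Nsdhl (0.96) and Sqle with Srebf2 (0.96), and Mvd ran opposite to Abca1 (-0.95). Insig1 was apart from most enzymes, with r = -0.01 to Mvd, -0.79 to Pmvk, 0.61 to Hmgcs1 and 0.62 to Stard4. These values describe 20 groups that share cell lines and sequencing libraries, and carry no test.

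Promoters of 4 members are shown, those of Acat2 and Mvd, the closest pair above, and of Hmgcs1 and Insig1. The last 2 had r = 0.61 to each other, but Hmgcs1 also had 0.85 to Sc5d, 0.38 to Acat2 and 0.37 to Mvd. RefSeq windows on GRCm38.p6 were given for 25 of the 31 members. Hmgcs1 (ENSMUSG00000093930; chromosome 13, 119690351 to 119708260) encodes the synthase that makes HMG-CoA. Insig1 (ENSMUSG00000045294; chromosome 5, 28071412 to 28078662) encodes the retention protein described above. Acat2 (ENSMUSG00000023832; chromosome 17, 12943042 to 12960725) encodes the thiolase of the opening step and Mvd (ENSMUSG00000006517; chromosome 8, 122433596 to 122443422) the decarboxylase that makes isopentenyl diphosphate. The sequences are the 250 bases before the annotated start in the direction of the gene, at chr13:119690101-119690350 (plus strand) for Hmgcs1, chr5:28071162-28071411 (plus) for Insig1, chr17:12960726-12960975 (minus) for Acat2 and chr8:122443423-122443672 (minus) for Mvd. Capitals mark letters that match CACNCCAC, the core of a known sterol regulatory element, or CCAAT, the motif of NF-Y, on either strand, and in Hmgcs1 also the leading letter of the longer TCACNCCAC.
Hmgcs1: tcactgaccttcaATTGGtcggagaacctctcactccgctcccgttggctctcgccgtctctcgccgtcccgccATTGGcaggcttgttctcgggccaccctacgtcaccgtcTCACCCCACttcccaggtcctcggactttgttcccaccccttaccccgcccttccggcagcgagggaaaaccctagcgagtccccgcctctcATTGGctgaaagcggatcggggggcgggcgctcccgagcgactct
Insig1: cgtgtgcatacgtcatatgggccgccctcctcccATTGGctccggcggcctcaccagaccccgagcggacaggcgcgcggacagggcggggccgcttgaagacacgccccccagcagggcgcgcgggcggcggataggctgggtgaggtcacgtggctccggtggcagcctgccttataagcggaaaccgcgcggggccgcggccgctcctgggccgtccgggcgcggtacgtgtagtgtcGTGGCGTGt
Acat2: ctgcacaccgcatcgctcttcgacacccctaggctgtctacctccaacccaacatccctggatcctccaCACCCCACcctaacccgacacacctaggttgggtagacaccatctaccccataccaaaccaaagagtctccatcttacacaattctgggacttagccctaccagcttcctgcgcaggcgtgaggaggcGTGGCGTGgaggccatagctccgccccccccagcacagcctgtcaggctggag
Mvd: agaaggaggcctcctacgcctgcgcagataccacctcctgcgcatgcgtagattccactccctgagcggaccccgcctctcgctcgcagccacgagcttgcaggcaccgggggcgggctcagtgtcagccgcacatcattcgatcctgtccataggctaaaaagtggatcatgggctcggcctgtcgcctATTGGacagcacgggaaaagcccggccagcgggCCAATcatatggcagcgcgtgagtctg
The search ran on windows of 300 bases, with 50 bases after the start. TCACNCCAC stood in 1 of the 25 members, Hmgcs1, from 137 to 129 bases before its start, against 1.44% of 27025 genes with a window. The shorter CACNCCAC, which lies inside that motif, stood in 3 of 25 members, Acat2, Hmgcs1 and Insig1, against 7.12% of all genes. In Acat2 it occurred at 2 places, and in Insig1 on the minus strand 9 to 2 bases before the start. CCAAT stood in 21 of 25 members, against 41.1% of all genes. It occurred at 2 places in Mvd, at 1 in Insig1 and at none in Acat2. A match describes the letters of a window and says nothing of binding.

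In low-serum N2B27 most synthesis enzymes were higher. At 0 h of the BMP4 series, in N2B27 with 1% serum, 23 of 31 members were higher and 5 lower than in the untreated Gata6 line in 15% serum, while 41.5% of all genes tested were called. The median log2 change was 0.73 over the members and -0.02 over all genes. Of the sterol enzymes 10 of 11 rose, and of the mevalonate enzymes 6 of 8. The exporters, by contrast, fell. Of 6 visceral endoderm markers 4 were called higher and 1 lower, and their summed level was 1349.8 to 1364 CPM in N2B27, against 622 to 634 CPM in the Gata6 line, most of it Cubn; their part in the result was not tested.

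Fdft1, squalene synthase, which commits farnesyl diphosphate to sterol, had 158 and 164 CPM in N2B27, against 38.0 and 39.9 CPM in the Gata6 line at 0 h (log2 change 2.05 ± 0.09, adjusted p = 2.2e-15). Tm7sf2, a sterol reductase, had 5.81 and 8.4 CPM in N2B27, against 1.12 and 1.48 CPM in the Gata6 line (log2 change 2.47 ± 0.27, adjusted p = 2.9e-08). Both N2B27 libraries lay well above both others for each gene. Msmo1, the oxidase that strips methyl groups from lanosterol products, had 94.1 and 94.9 CPM in N2B27, against 30.8 and 26.9 CPM (log2 change 1.71 ± 0.10, adjusted p = 2.8e-13). Fdps, which makes farnesyl diphosphate, had 72.8 and 74.3 CPM in N2B27, against 22.7 and 23.4 CPM (log2 change 1.67 ± 0.15, adjusted p = 6.4e-10). Dhcr7, a reductase of the closing steps, changed by 1.59 ± 0.09 and Sqle, squalene epoxidase, by 1.48 ± 0.07 on the log2 scale (adjusted p = 3.2e-14 and 1e-14). Of these enzymes only Fdps belongs to the mevalonate group. The median log2 change was 1.33 over the sterol enzymes and 0.86 over the mevalonate enzymes.

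The control genes split. Srebf2, which encodes the SREBP that drives sterol synthesis, had 442 and 454 CPM in N2B27, against 170.0 and 184 CPM in the Gata6 line (log2 change 1.34 ± 0.08, adjusted p = 5.7e-13). Insig1 had 216 and 220.3 CPM in N2B27, against 261 and 274 CPM (log2 change -0.29 ± 0.09, adjusted p = 0.013), so that it was lower although most enzymes were higher, a call lost in 3 of 4 fits that left out a library (adjusted p = 0.079 and 0.053 without replicate 1 or 2 in N2B27 and 0.071 without replicate 2 of the Gata6 line). Abcg1 had 1.08 and 1.33 CPM in N2B27, against 8.16 and 7.77 CPM (log2 change -2.71 ± 0.29, adjusted p = 2.1e-08), and Abca1, the exporter that lipidates apolipoprotein A1, had 31.9 and 32.9 CPM, against 89.3 and 76.5 CPM (log2 change -1.35 ± 0.19, adjusted p = 1.9e-06). Mylip, a ubiquitin ligase that removes lipoprotein receptors, rose with the enzymes (1.35 ± 0.12, adjusted p = 1.6e-09). Pmvk, Hsd17b7 and Stard4 were not called. Basal medium, serum, the gelatin coating and the culture set differ together between these groups, and the titles leave it in doubt whether both are the same line, so these cannot be told apart.

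**Figure D1:**
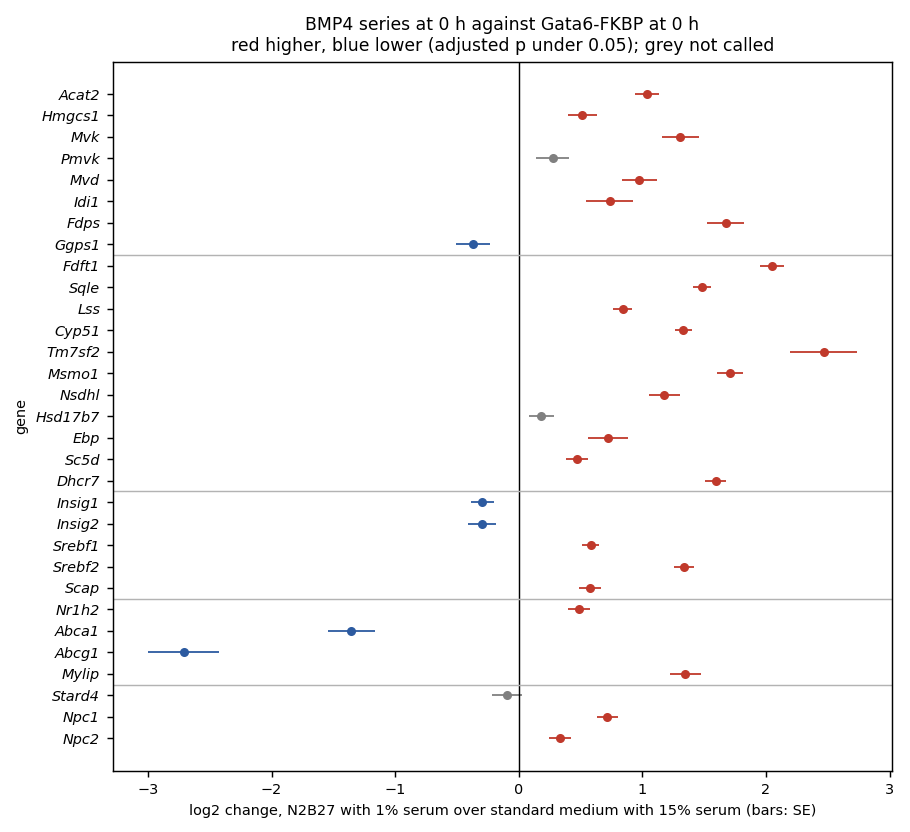
Log2 change of each of the 31 members in N2B27 with 1% serum over the untreated Gata6 line in 15% serum, with standard errors as bars (2 libraries a group, edgeR). Grey lines part mevalonate enzymes, sterol enzymes, SREBP control, LXR control and export, and transport, from top to bottom. Red marks the 23 genes called higher, and blue the 5 called lower, with Abcg1 farthest left at -2.71.

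Early after dTAGV1 in the Gata6 line, fewer members were called than at 48 h. At 6 h 7 of 31 members were called, and 3 rose and 4 fell (13.9% of all genes called). At 24 h 10 of 31 were called, and 5 rose and 5 fell (21.4% of all genes called). The falls at both times included Idi1, the isomerase of isopentenyl diphosphate, as well as Hmgcs1, Insig1 and Stard4, a cytosolic sterol carrier. Abcg1, Srebf1 and Srebf2 rose at both times, Srebf1 encoding the SREBP best known for fatty acid synthesis. No mevalonate enzyme rose at either time.

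Abcg1 had 13.6 and 14.7 CPM at 6 h and 21.1 and 20.3 CPM at 24 h, against 8.16 and 7.77 CPM at 0 h (log2 change 0.83 ± 0.21, adjusted p = 0.011 at 6 h and log2 change 1.38 ± 0.20, adjusted p = 9.2e-05 at 24 h). Hmgcs1 had 117 and 115 CPM at 6 h and 106 and 109 CPM at 24 h, against 171 and 150.3 CPM at 0 h (-0.47 ± 0.12 and -0.58 ± 0.12, adjusted p = 0.013 and 0.0014). Insig1 had 199 and 206 CPM at 6 h and 215 and 206 CPM at 24 h, against 261 and 274 CPM at 0 h (-0.40 ± 0.09 and -0.34 ± 0.09, adjusted p = 0.0084 and 0.011). The libraries of 6 and 24 h lay close to each other for these last 2 genes and below both 0 h libraries, while Abcg1 stood higher again at 24 h. Idi1 changed by -0.70 ± 0.22 at 6 h and -0.80 ± 0.21 at 24 h, Stard4 by -0.39 ± 0.12 and -0.50 ± 0.12, and Srebf1 by 0.29 ± 0.07 and 0.36 ± 0.07 (adjusted p = 0.033, 0.009, 0.034, 0.0051, 0.0095 and 0.00091). Many of these early calls depended on which libraries were used. Without replicate 1 of 0 h, 0 of 31 members were called at 6 h and 1, Abcg1, at 24 h. Without replicate 1 or replicate 2 of 6 h the count at 6 h was 0 or 3, and without replicate 1 or replicate 2 of 24 h the count at 24 h was 4 or 5. Without replicate 2 of 0 h the counts were 9 at 6 h and 10 at 24 h. At 24 h Abcg1 was called in each of 4 fits that left out a library, and Hmgcs1 and Srebf1 in 3 of 4. The calls of Idi1 and Insig1 at 24 h were lost in 3 of 4 such fits, and that of Stard4 in 2 of 4.

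At 48 h many synthesis enzymes were lower and Insig1 was higher in the Gata6 line, and at 72 and 96 h fewer sterol enzymes were called lower. At 48 h 8 members rose and 15 fell (40.1% of all genes called). At 72 h 8 rose and 11 fell (39.6%), and at 96 h 8 rose and 7 fell (40.3%). The share of members called at 96 h was near that of all genes. Median changes at 48, 72 and 96 h were -0.18, -0.12 and -0.03 over the members, with 0.00 over all genes at each time. Of 8 mevalonate enzymes 6, 6 and 4 fell at 48, 72 and 96 h, and Ggps1 rose at each of these times. Of 11 sterol enzymes 7, 5 and 2 fell at the same times, and none rose. All 3 transport genes rose at 48, 72 and 96 h. Of 6 visceral endoderm markers 3, 4 and 4 were called higher at these times and 1 lower at 96 h, with summed levels of 509 to 522 CPM at 48 h and 479.6 to 489.8 CPM at 96 h, against 622 to 634 CPM at 0 h; their part in the result was not tested.

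Mvd had 21.9 and 18.9 CPM at 48 h, against 39.2 and 45.9 CPM at 0 h in the Gata6 line (log2 change -1.06 ± 0.15, adjusted p = 1.7e-06). Sqle, which adds oxygen to squalene, had 26.5 and 27.4 CPM at 48 h, against 44.5 and 51.4 CPM at 0 h (log2 change -0.83 ± 0.08, adjusted p = 1.8e-09). Fdps had 13.2 and 12.7 CPM at 48 h, against 22.7 and 23.4 CPM at 0 h (log2 change -0.83 ± 0.16, adjusted p = 0.00012). In each of these 3 enzymes both libraries of 48 h lay below both of 0 h. Acat2 fell as well (-0.74 ± 0.10, adjusted p = 1e-06). At 72 h Mvd changed by -0.82 ± 0.15, Idi1 by -0.81 ± 0.22, Sqle by -0.77 ± 0.08 and Acat2 by -0.70 ± 0.10 (adjusted p at most 0.0035). At 96 h Mvd changed by -0.82 ± 0.15, Sqle by -0.62 ± 0.08 and Fdps by -0.56 ± 0.16, while Ggps1, which makes geranylgeranyl diphosphate for protein prenylation, rose by 0.76 ± 0.13 (adjusted p at most 0.0052). Idi1 at 72 h was not called without replicate 1 of 0 h (adjusted p = 0.07), and Fdps at 96 h was not called without replicate 1 of 96 h (adjusted p = 0.078).

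Insig1 had 484 and 469.8 CPM at 48 h, 513 and 526 CPM at 72 h and 550.0 and 525 CPM at 96 h, against 261 and 274 CPM at 0 h (0.84 ± 0.09, 0.96 ± 0.09 and 1.01 ± 0.09, adjusted p = 4.6e-08, 3.8e-09 and 2e-09). All 6 late libraries lay above both of 0 h, where those of 6 and 24 h had lain below. Abcg1 had 25.3 and 26.8 CPM at 72 h, against 8.16 and 7.77 CPM at 0 h (log2 change 1.71 ± 0.20, adjusted p = 7.7e-08), the highest level of this exporter in any group, and had also risen at 48 h (1.32 ± 0.20) and 96 h (1.52 ± 0.20, adjusted p at most 5.5e-06). Abca1 was called at 96 h (0.50 ± 0.18, adjusted p = 0.029) and not at 48 h (0.42 ± 0.18, adjusted p = 0.068). The call at 96 h was lost without replicate 2 of 0 h or of 96 h (adjusted p = 0.21 and 0.15), and the value turned to -0.13 with reads outside genes as a covariate. Hmgcs1 at 48 h lay amid its 0 h values (0.02 ± 0.12, adjusted p = 0.95). Cyp51, the lanosterol demethylase, had 51.2 and 51.6 CPM at 48 h, against 53.5 and 57.9 CPM at 0 h, and was not called (-0.12 ± 0.07, adjusted p = 0.2).

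The step between 24 and 48 h in the Gata6 line was tested directly. At 48 h 7 members were higher and 16 lower than at 24 h (54.1% of all genes called). Insig1 changed by 1.18 ± 0.09, Stard4 by 1.03 ± 0.12, Mvd by -1.17 ± 0.15, Fdps by -1.16 ± 0.16, Ebp, a sterol isomerase, by -0.87 ± 0.17 and Acat2 by -0.83 ± 0.10 (adjusted p at most 8.8e-05). Stard4 had 161 and 163 CPM at 48 h, against 77.2 and 81.0 CPM at 24 h, so this carrier, like Insig1, was on opposite sides of its 0 h level at the 2 times. Reads outside genes numbered 7.01 to 8.15 per 100 gene reads at 48 to 96 h, against 6.11 and 5.66 at 0 h. With that quantity as a covariate, the count of members called was 14 at 48 h against 0 h and 10 at 48 h against 24 h, and its part in the result was not tested otherwise.

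**Figure D2:**
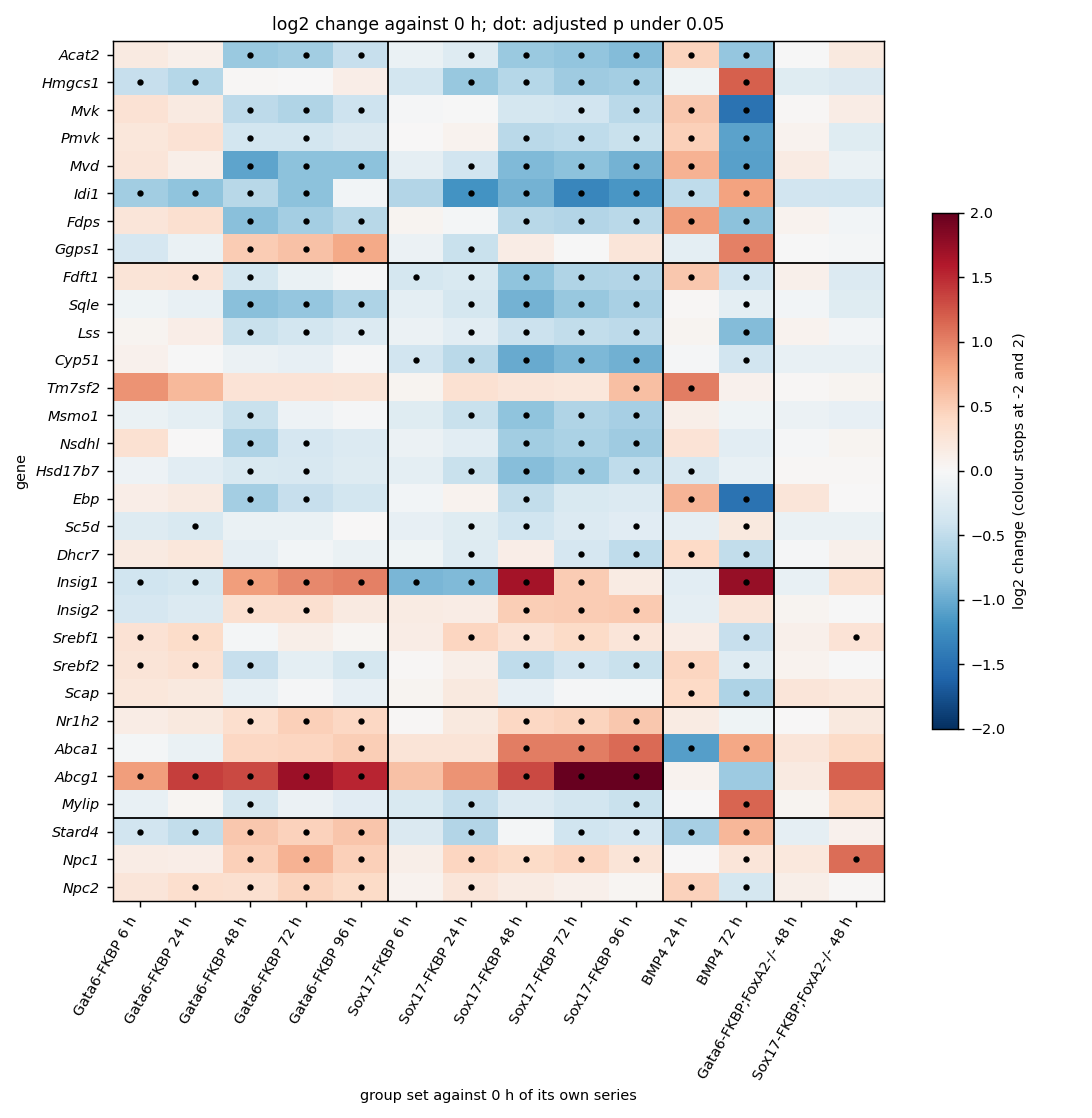
Log2 change of the 31 members (down the page, parted by role) in each group against 0 h of its own series, in colour from blue (lower) to red (higher), with a dot where the adjusted p lies under 0.05 (edgeR, 2 libraries a group). At 48 h most synthesis enzymes are called lower and Insig1 and Abcg1 higher in both lines, at 96 h in the Gata6 line 2 of 11 sterol enzymes are called lower, and the column of the FoxA2 mutant of the Gata6 line holds no dot.

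In the Sox17 line most synthesis enzymes were called lower from 24 h on. The 24 h libraries lay far apart, however, and most calls at 24 h were lost in a fit to only the libraries compared, as counted further below. At 6 h 3 members fell and none rose (1.74% of all genes called), namely Insig1, Cyp51 and Fdft1. At 24 h 3 rose and 16 fell (30.4%), at 48 h 7 rose and 16 fell (30.9%), at 72 h 7 rose and 18 fell (36.1%), and at 96 h 7 rose and 19 fell (40.5%). Median changes at 48 and 96 h were -0.39 and -0.45 over the members and 0.02 and 0.06 over all genes. Of 11 sterol enzymes 9 fell at 48 h and 1, Tm7sf2, rose at 96 h. Of 8 mevalonate enzymes 6 fell at 48 h and 7 at 96 h, and none rose at any time.

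Cyp51 had 60.8 and 62.9 CPM at 6 h and 39.3 and 40.8 CPM at 48 h, against 80.0 and 82.0 CPM at 0 h in the Sox17 line (-0.39 ± 0.07 and -1.01 ± 0.07, adjusted p = 0.0011 and 5.8e-12). Sqle had 45.0 and 49.4 CPM at 48 h, against 89.8 and 91.6 CPM at 0 h (log2 change -0.94 ± 0.07, adjusted p = 8.3e-11). Idi1 had 5.57 and 5.64 CPM at 48 h, against 11.2 and 10.5 CPM at 0 h (log2 change -0.95 ± 0.18, adjusted p = 0.00013). No library of 48 h overlapped those of 0 h in these 3 enzymes, and Cyp51 was lower already at 6 h. At 24 h Idi1 changed by -1.20 ± 0.18, Hmgcs1 by -0.75 ± 0.12, Stard4 by -0.58 ± 0.12 and Cyp51 by -0.54 ± 0.07 (adjusted p at most 0.00067), and Mylip by -0.48 ± 0.16 (adjusted p = 0.029). At 72 and 96 h Idi1 changed by -1.31 ± 0.18 and -1.16 ± 0.18, Cyp51 by -0.89 ± 0.07 and -0.96 ± 0.07, Mvd by -0.83 ± 0.14 and -0.95 ± 0.15, and Acat2 by -0.78 ± 0.10 and -0.86 ± 0.10 (adjusted p at most 3.8e-05). The Mylip call at 24 h was lost in 3 of 4 fits that left out a library, and without replicate 2 of 0 h the count of members called at 24 h was 10. Fdft1 at 6 h (-0.36 ± 0.09, adjusted p = 0.037) was not called when any 1 of the 4 libraries was left out, with 0.12 to 0.36 as adjusted p.

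Insig1 in the Sox17 line was lower at 6 and 24 h, as were the enzymes called then. At 48 and 72 h Insig1 was higher, while most enzymes were lower. It had 38.4 and 37.0 CPM at 6 h, 41.4 and 35.8 CPM at 24 h, 221 and 228 CPM at 48 h, 98.2 and 104 CPM at 72 h and 82.6 and 76.1 CPM at 96 h, against 74.2 and 68.1 CPM at 0 h. The changes were -0.92 ± 0.10, -0.88 ± 0.10, 1.66 ± 0.10, 0.51 ± 0.10 and 0.16 ± 0.10 in that order of times (adjusted p = 2e-06, 1.3e-07, 3.1e-13, 0.0001 and 0.2). Both libraries of 48 h stood above every other library of that line, while those of 6 and 24 h lay below 0 h and those of 96 h were not told from 0 h by the test.

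The exporters were called higher from 48 h in the Sox17 line, and at 6 and 24 h neither was called. Abca1 had 189 and 196 CPM at 48 h and 203 and 211 CPM at 96 h, against 95.7 and 92.9 CPM at 0 h (1.03 ± 0.18 and 1.13 ± 0.18, adjusted p = 4.4e-05 and 7.2e-06). Abca1 at 72 h stood alike (1.02 ± 0.18, adjusted p = 3.6e-05). Abcg1 had 2.74 and 2.74 CPM at 72 h and 3.83 and 5.29 CPM at 96 h, against 0.351 and 0.478 CPM at 0 h (2.67 ± 0.34 and 3.41 ± 0.31, adjusted p = 3.3e-07 and 1.1e-09). Its level at 96 h was nonetheless below that of any library of the Gata6 line without the FoxA2 mutation. Its smaller rise at 48 h (1.32 ± 0.41, adjusted p = 0.014) was not called without replicate 1 of 0 h or of 48 h (adjusted p = 0.08 and 0.39). Nr1h2 rose at 48 h (0.41 ± 0.09, adjusted p = 0.00048), and Srebf1 rose from 24 h on, with log2 changes of 0.25 to 0.43. Srebf2 fell at 48, 72 and 96 h, with log2 changes of -0.38 to -0.50. Of 6 visceral endoderm markers 3, 4, 3 and 4 were called higher at 24, 48, 72 and 96 h and none lower, with summed levels of 986 to 1093 CPM at 48 h and 1005 to 1086 CPM at 96 h, against 925 to 977 CPM at 0 h. The sum of 5 trophoblast markers was 4.51 to 7.08 CPM at 24 h, 0.868 to 1.16 CPM at 48 h, 6.13 to 7.34 CPM at 72 h and 29.4 to 33.0 CPM at 96 h, against 2.41 to 2.98 CPM at 0 h, nearly all of it Krt7 at 96 h, when Cdx2, Elf5 and Tfap2c were at 0. Both trophoblast markers that passed the filter were called higher at 72 and 96 h. The part of these markers in the result was not tested. Fitted to only the libraries compared, the count of members called was 10 at 6 h and 2 at 24 h.

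**Figure D3:**
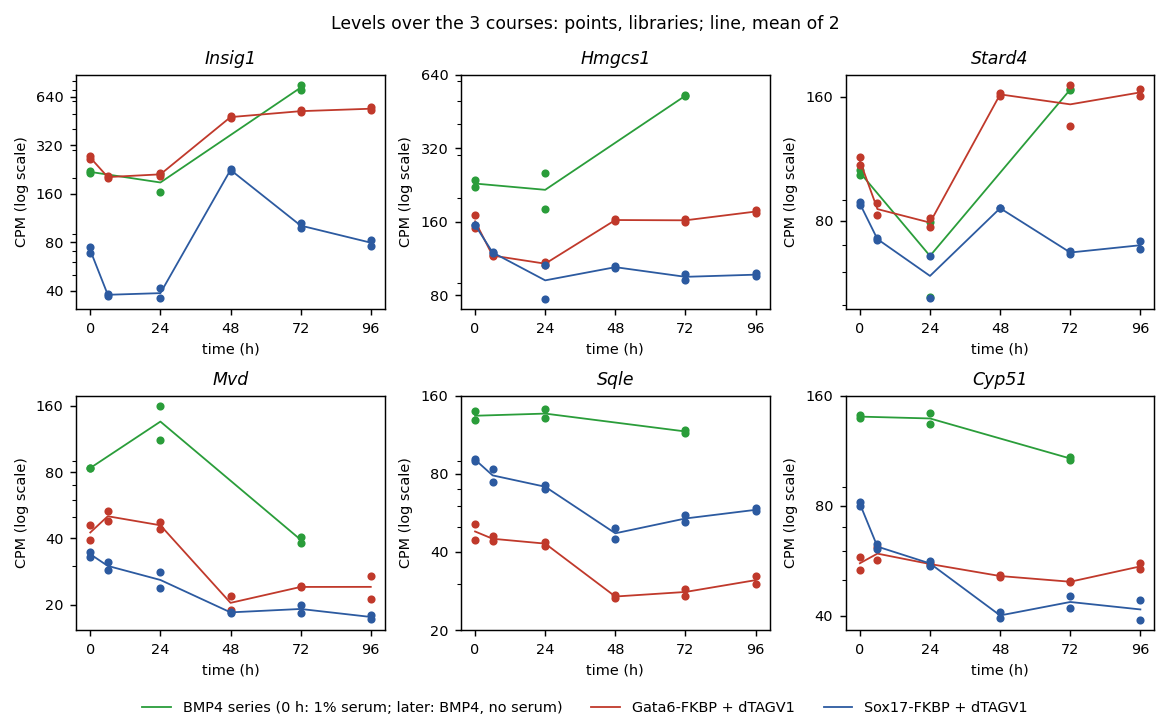
Levels in CPM (log axis) over time in hours for 6 members in the BMP4 series (green), the Gata6 line (red) and the Sox17 line (blue), with a point per library and lines through the means of 2. Insig1 peaks at 48 h in the Sox17 line, stays high from 48 h in the Gata6 line and reaches 701 and 752 CPM in BMP4 at 72 h, while Cyp51 falls in the Sox17 line and has no called change at any time in the Gata6 line.

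The 48 h responses of both lines were set against each other, and 17.1% of all genes differed. Of the members, 5 had a more positive and 2 a more negative change in the Gata6 line. Cyp51 changed by -0.12 in the Gata6 line and -1.01 in the Sox17 line (difference 0.90 ± 0.10, adjusted p = 1.2e-07). Insig1 rose in both, by 0.84 in the Gata6 line and 1.66 in the Sox17 line (difference -0.82 ± 0.13, adjusted p = 5.6e-05). Hmgcs1 changed by 0.02 in the Gata6 line and -0.57 in the Sox17 line (difference 0.59 ± 0.17, adjusted p = 0.014), and Stard4 by 0.53 and -0.04 in the same order (difference 0.57 ± 0.17, adjusted p = 0.02). The difference of Hmgcs1 was not called without replicate 2 of the Gata6 line at 0 h (adjusted p = 0.095), when 4 members differed in all, and that of Stard4 was not called in 5 of 8 fits that left out a library. Mvd, Acat2 and Sqle, in contrast, had differences of -0.18 ± 0.21, 0.00 ± 0.14 and 0.11 ± 0.11, none called.

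After 24 h of BMP4, 5 of 8 mevalonate and 4 of 11 sterol enzymes were called higher, and after 72 h the enzymes were split. At 24 h 12 members were higher and 4 lower than at 0 h (43.6% of all genes called, 21.3% higher and 22.2% lower). The share of members called at 24 h was near that of all genes. At 72 h 9 were higher and 15 lower than at 0 h (62.8%), and 10 higher and 18 lower than at 24 h (70.3%). Median changes were 0.12 at 24 h and -0.21 at 72 h over the members, and 0.00 over all genes at both times. Serum was removed when BMP4 was added, so the ligand and the loss of serum cannot be told apart. Of 10 extraembryonic endoderm markers 7 were called lower at 24 h and 7 at 72 h, and 1 was higher at each time, with summed levels of 22081 to 26992 CPM at 24 h and 20786 to 21180.0 CPM at 72 h, against 34794 to 35024 CPM at 0 h. Of 6 visceral endoderm markers 4 were called higher and none lower at 24 h, with sums of 859.8 to 1691 CPM at 24 h, against 1349.8 to 1364 CPM at 0 h. The part of these markers was not tested.

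The 24 h libraries differed much between themselves. Fdps had 105 and 158 CPM at 24 h, against 72.8 and 74.3 CPM at 0 h (log2 change 0.84 ± 0.14, adjusted p = 3.4e-05), and Abca1 had 20.7 and 9.17 CPM, against 31.9 and 32.9 CPM (log2 change -1.11 ± 0.20, adjusted p = 0.00014). Both groups stood apart in each gene, but replicate 2 lay much farther from 0 h than replicate 1. Tm7sf2 changed by 1.02 ± 0.19, Mvd by 0.70 ± 0.14, Ebp by 0.68 ± 0.16 and Stard4 by -0.67 ± 0.12 at 24 h (adjusted p = 0.00015, 0.00024, 0.0012 and 0.00014). Ebp was not called without replicate 2 of 24 h (log2 change 0.36, adjusted p = 0.12). In a fit to only the 4 libraries compared, 0 members were called at 24 h.

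At 72 h Insig1 had 701 and 752 CPM, against 216 and 220.3 CPM at 0 h (log2 change 1.74 ± 0.10, adjusted p = 2e-14), its highest level in any group. Hmgcs1 had 521 and 528 CPM at 72 h, against 236 and 222 CPM at 0 h (log2 change 1.19 ± 0.12, adjusted p = 1.7e-09), also its highest. Mvk, mevalonate kinase, had 25.0 and 27.2 CPM at 72 h, against 73.1 and 72.7 CPM at 0 h (log2 change -1.48 ± 0.15, adjusted p = 1.9e-09). The HMG-CoA synthase thus rose while mevalonate kinase, further along the pathway, fell, with tight replicates in each group. Ebp had 17.5 and 17.3 CPM at 72 h, against 52.3 and 44.9 CPM at 0 h (log2 change -1.48 ± 0.17, adjusted p = 1.8e-08). Mylip had 45.9 and 46.2 CPM at 72 h, against 20.02 and 20.84 CPM at 0 h (log2 change 1.17 ± 0.11, adjusted p = 6.8e-10), and its 72 h libraries were above those of every other group.

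Further falls at 72 h against 0 h were those of Mvd (-1.08 ± 0.14), Pmvk, phosphomevalonate kinase (-1.06 ± 0.14), Lss, lanosterol synthase (-0.87 ± 0.08), and Acat2 (-0.77 ± 0.09), with adjusted p at most 1.8e-07. Further rises were those of Ggps1 (1.01 ± 0.13), Idi1 (0.81 ± 0.17), Abca1 (0.78 ± 0.19) and Stard4 (0.67 ± 0.12), with adjusted p at most 0.00077. Mevalonate enzymes thus divided into 3 that rose and 5 that fell, and sterol enzymes into 1 that rose, Sc5d, and 6 that fell. The share of sterol enzymes called was near that of all genes, of which 31.6% rose and 31.2% fell. Against 24 h, Ebp changed by -2.16 ± 0.17, Mvk by -2.02 ± 0.15, Insig1 by 1.95 ± 0.10, Abca1 by 1.89 ± 0.20, Mvd by -1.78 ± 0.14 and Fdps by -1.65 ± 0.14 (adjusted p at most 2.8e-09). Reads outside genes were 10.4 and 10.3 per 100 gene reads at 72 h, against 5.64 and 5.69 at 0 h. With them as a covariate 4 members were called at 72 h against 0 h and 2 against 24 h, Insig1 among them both times (log2 change 1.35 against 0 h and 1.48 against 24 h). Abca1 and Stard4 then turned to -0.45 and -0.11 at 72 h against 0 h, neither called. Of 6 visceral endoderm markers 5 were called higher and none lower at 72 h, and their summed level was 1313 to 1314 CPM at 72 h, against 1349.8 to 1364 CPM at 0 h; the part of these markers was not tested.

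The FoxA2-/- genotype of untreated cells went with higher sterol enzymes in the Gata6 line. There 19 of 31 members were higher and 5 lower in the mutant (48.3% of all genes called), with a median change of 0.34 over the members and 0.00 over all genes. Of the sterol enzymes 10 of 11 were higher and none lower. In the Sox17 line 9 were higher and 7 lower in the mutant (50.6%), a share near that of all genes, and the median change was 0.04. There 2 of 11 sterol enzymes were higher and 2 lower, and 2 of 8 mevalonate enzymes were higher and 2 lower. Foxa2 RNA averaged 112 CPM in the mutant and 124 CPM in its parent for the Gata6 line, and 88.0 and 120.2 CPM for the Sox17 line, so counts over the gene do not show the mutation.

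Markers moved as well in untreated mutants. Of 10 extraembryonic endoderm markers 8 were called lower and 1 higher in the mutant of the Gata6 line, with a sum of 17382 to 17706 CPM, against 30383 to 32524 CPM without the mutation, and 7 lower and 2 higher in that of the Sox17 line, with 20720.0 to 20910.0 CPM, against 24132 to 24724 CPM. The sum of 5 trophoblast markers was 18.5 CPM in both libraries of the mutant of the Gata6 line, mostly Eomes and Krt7, against 1.22 to 1.23 CPM, with Cdx2, Elf5 and Tfap2c near 0, and 3.09 to 3.22 CPM in that of the Sox17 line, against 2.41 to 2.98 CPM. The 5 fibroblast markers summed to 1.83 to 2.33 CPM in the mutant of the Gata6 line, against 0.0642 to 0.176 CPM, and 4.01 to 4.66 CPM in that of the Sox17 line, against 0.335 to 0.386 CPM, with Thy1 and Twist2 at 0. Visceral endoderm markers summed to 930.0 to 1049.5 CPM in the mutant of the Gata6 line, against 622 to 634 CPM, and 1306 to 1431 CPM in that of the Sox17 line, against 925 to 977 CPM, most of it Cubn. The part of these markers in the members' changes was not tested.

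Msmo1 had 105 and 106 CPM in the mutant of the Gata6 line, against 30.8 and 26.9 CPM in the line without the mutation (log2 change 1.87 ± 0.10, adjusted p = 8.3e-15). For the Sox17 line it had 80.3 and 81.1 CPM in the mutant, against 34.4 and 35.9 CPM without the mutation (log2 change 1.20 ± 0.10, adjusted p = 2.1e-11). Fdps had 72.9 and 63.2 CPM in the mutant of the Gata6 line, against 22.7 and 23.4 CPM (log2 change 1.56 ± 0.15, adjusted p = 6.7e-10), and was also higher in the mutant of the Sox17 line (0.80 ± 0.14, adjusted p = 2.1e-05). Both enzymes were thus higher in both mutants without overlap, as were Tm7sf2 (1.98 ± 0.27 in the Gata6 line and 1.17 ± 0.19 in the Sox17 line) and Mylip (1.14 ± 0.12 and 1.22 ± 0.13), with adjusted p at most 9e-06. Fdft1 was higher in the mutant of the Gata6 line (1.30 ± 0.09, adjusted p = 3.3e-12) and had 0.17 in that of the Sox17 line (adjusted p = 0.12). Sqle went opposite ways in the 2 mutants. It had 90.8 and 91.3 CPM in the mutant of the Gata6 line, against 44.5 and 51.4 CPM. For the Sox17 line it had 62.0 and 66.3 CPM in the mutant, against 89.8 and 91.6 CPM.

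Insig1 had 77.2 and 77.3 CPM in the mutant of the Gata6 line, against 261 and 274 CPM without the mutation (log2 change -1.79 ± 0.10, adjusted p = 8.7e-15). In the Sox17 line, where it was low to begin with, it had 88.6 and 86.4 CPM in the mutant, against 74.2 and 68.1 CPM (log2 change 0.30 ± 0.10, adjusted p = 0.01), a call lost without replicate 1 of the mutant or replicate 2 of the other group (adjusted p = 0.054 and 0.12). Insig1 in the untreated Gata6 line thus stood above the 6 untreated libraries of the Sox17 line and of both mutants. Abcg1 was lower in the mutant of the Gata6 line, with 1.23 and 1.35 CPM, against 8.16 and 7.77 CPM (log2 change -2.62 ± 0.27, adjusted p = 5.2e-09). For the Sox17 line it was near the floor in both groups, with 0.199 and 0.115 CPM in the mutant, against 0.351 and 0.478 CPM (log2 change -1.47 ± 0.57, adjusted p = 0.032), a call lost without replicate 2 of either group (adjusted p = 0.25 and 0.23). Npc2, a lysosomal sterol carrier, was higher in the mutant of the Sox17 line (0.71 ± 0.09, adjusted p = 1.2e-07). Whether the changes differ between the lines was not tested, and each mutant was made in a line of its own, so the mutation and the derivation of the line cannot be told apart.

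Within the mutants, 48 h of dTAGV1 changed few genes of any kind, and few members among them. In the mutant of the Gata6 line the members' share of calls was near that of all genes. In the mutant of the Gata6 line 0 of 31 were called by edgeR (0.239% of all genes), and Insig1 had 72.9 and 66.1 CPM at 48 h, against 77.2 and 77.3 CPM at 0 h (log2 change -0.15 ± 0.10, adjusted p = 0.66). In the mutant of the Sox17 line 2 rose and none fell (2.76%). Npc1, which moves cholesterol out of late endosomes, had 356 and 354 CPM at 48 h, against 164 and 162 CPM at 0 h (log2 change 1.12 ± 0.08, adjusted p = 4.9e-10), its highest level in any group and far outside the spread of its replicates. Srebf1 rose slightly (0.27 ± 0.07, adjusted p = 0.024), a call lost when any 1 of the 4 libraries was left out (adjusted p = 0.12 to 0.21). Insig1 there had 102 and 115 CPM at 48 h, against 88.6 and 86.4 CPM at 0 h (log2 change 0.31 ± 0.09, adjusted p = 0.08). In that mutant the count depended on the fit, with 11 members called when only its own 4 libraries were used, 4 by DESeq2, and 8 with reads outside genes as a covariate. Visceral endoderm markers, of which 2 of 6 were called higher and none lower there, summed to 2247 to 2291 CPM at 48 h, against 1306 to 1431 CPM at 0 h, and their part was not tested.

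The difference between the 48 h response of each mutant and that of its line was tested in the same model. In the Gata6 line 10 members had a more positive and 5 a more negative change in the mutant (27% of all genes differed). Mvd changed by 0.17 in the mutant and -1.06 without the mutation (difference 1.23 ± 0.20, adjusted p = 4.3e-05), and Ebp by 0.25 and -0.69 in the same order (difference 0.93 ± 0.23, adjusted p = 0.0033). Insig1 changed by -0.15 in the mutant and 0.84 without it (difference -0.99 ± 0.14, adjusted p = 3.5e-06). The enzymes that fell and Insig1, which rose, thus both had smaller changes in the mutant. Of all genes 0.239% were called at 48 h in that mutant, against 40.1% without the mutation, so small changes there were not particular to the members. Abcg1 had difference -1.14 ± 0.41, adjusted p = 0.037, a call lost in 6 of 8 fits that left out a library. With reads outside genes as a covariate 8 members differed.

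In the Sox17 line 13 members had a more positive and 2 a more negative change in the mutant (14.4% of all genes differed). Insig1 changed by 0.31 in the mutant and 1.66 without the mutation (difference -1.34 ± 0.13, adjusted p = 5e-08). Acat2 changed by 0.20 in the mutant and -0.74 without it (difference 0.93 ± 0.13, adjusted p = 1.3e-05), Cyp51 by -0.15 and -1.01 (difference 0.86 ± 0.10, adjusted p = 3e-07), and Hsd17b7, a sterol ketone reductase, by 0.03 and -0.85 (difference 0.88 ± 0.14, adjusted p = 6.5e-05). The difference in Abcg1 was not called (-0.14 ± 0.87, adjusted p = 0.97), and at its low level in that line the error was wide. Fitted to only the 8 libraries involved, 23 members differed.

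**Figure D4:**
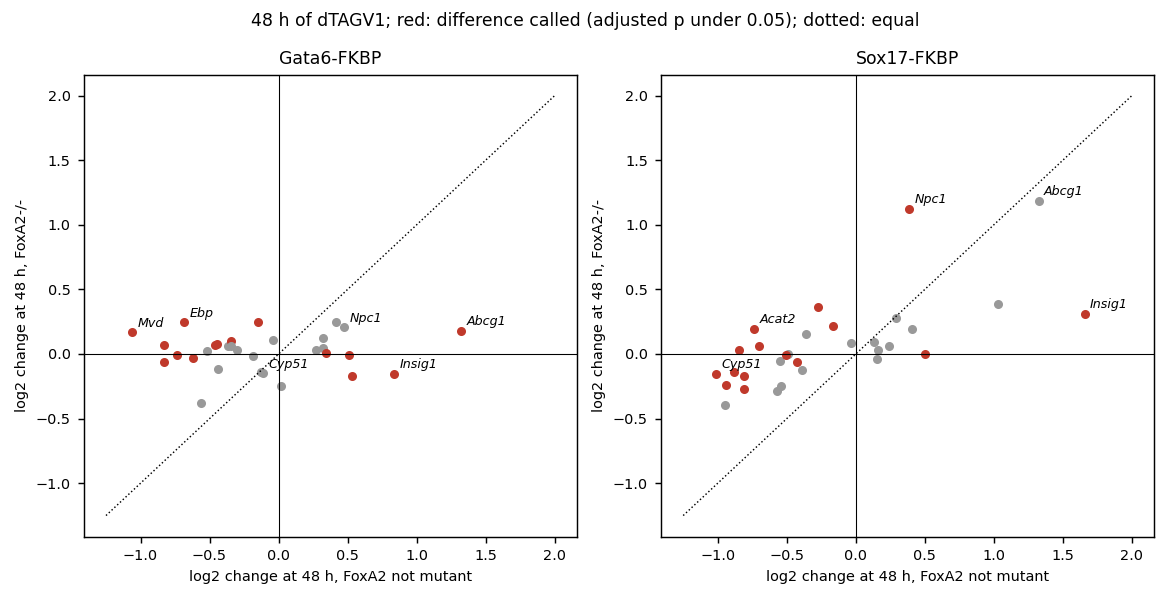
Log2 change of each of the 31 members after 48 h of dTAGV1 in the FoxA2 mutant (vertical) against the same line without the mutation (horizontal), for the Gata6 line (left) and the Sox17 line (right). Red marks a difference called at an adjusted p under 0.05, and the dotted line marks equal change. Most points lie near 0 on the vertical axis, and Npc1 in the Sox17 line stands at 1.12 in the mutant and 0.38 without the mutation.

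Untreated tagged lines were compared with parental cXEN cells, in which fibroblast markers also differed. Of 5 fibroblast markers, Col1a1 and Col1a2 made up most of a summed 1125 to 1501 CPM in parental cells, against at most 5.52 CPM in any other group, while Twist2 had 20.6 CPM and Thy1 and Postn were near 0 there; the part of these markers in the changes below was not tested. In the Gata6 line 10 members were higher and 5 lower (47.8% of all genes called), and in the Sox17 line 13 higher and 4 lower (57.1%), so the members' share of calls was near that of all genes. By role, 8 of 11 sterol enzymes were higher and none lower in the Sox17 line, where 25.8% of all genes were higher. Of 8 mevalonate enzymes 1 was higher and none lower there. In the Gata6 line 4 sterol enzymes were higher and 1 lower, and 1 mevalonate enzyme was higher and 4 lower. Hmgcs1 was higher in both tagged lines, with 171 and 150.3 CPM in the Gata6 line and 155 and 155 CPM in the Sox17 line, against 78.5 and 72.5 CPM in parental cells (1.09 ± 0.12 and 1.04 ± 0.12, adjusted p = 1.8e-08 and 2.8e-08). Insig1 was higher in the Gata6 line and lower in the Sox17 line than the 147 and 118 CPM of parental cells (1.01 ± 0.10 and -0.90 ± 0.10, adjusted p = 9e-10 and 7.4e-09). The lines thus stood on opposite sides of their parent in Insig1 and on the same side in Hmgcs1.

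Abcg1 had 0.351 and 0.478 CPM in the Sox17 line, against 5.89 and 7.59 CPM in parental cells (log2 change -3.97 ± 0.30, adjusted p = 6.4e-12), the largest fall of any member in any comparison here. Sqle was higher in the Sox17 line (1.10 ± 0.07), as were Tm7sf2 (1.01 ± 0.24) and Srebf2 (0.77 ± 0.08), with adjusted p at most 0.00079. Mylip had 8.45 and 7.58 CPM in the Gata6 line, against 2.8 and 2.74 CPM in parental cells (log2 change 1.53 ± 0.15, adjusted p = 1.4e-09), and Stard4 and Lss were higher there too (0.66 ± 0.12 and 0.57 ± 0.08, adjusted p = 6e-05 and 1.1e-06). Idi1 was lower in the Gata6 line (-0.59 ± 0.19, adjusted p = 0.0099), a call lost without replicate 2 of the Gata6 line or of parental cells (adjusted p = 0.11 and 0.05). Fitted to only its own 4 libraries, the Gata6 line had 9 members called.

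**Figure D5:**
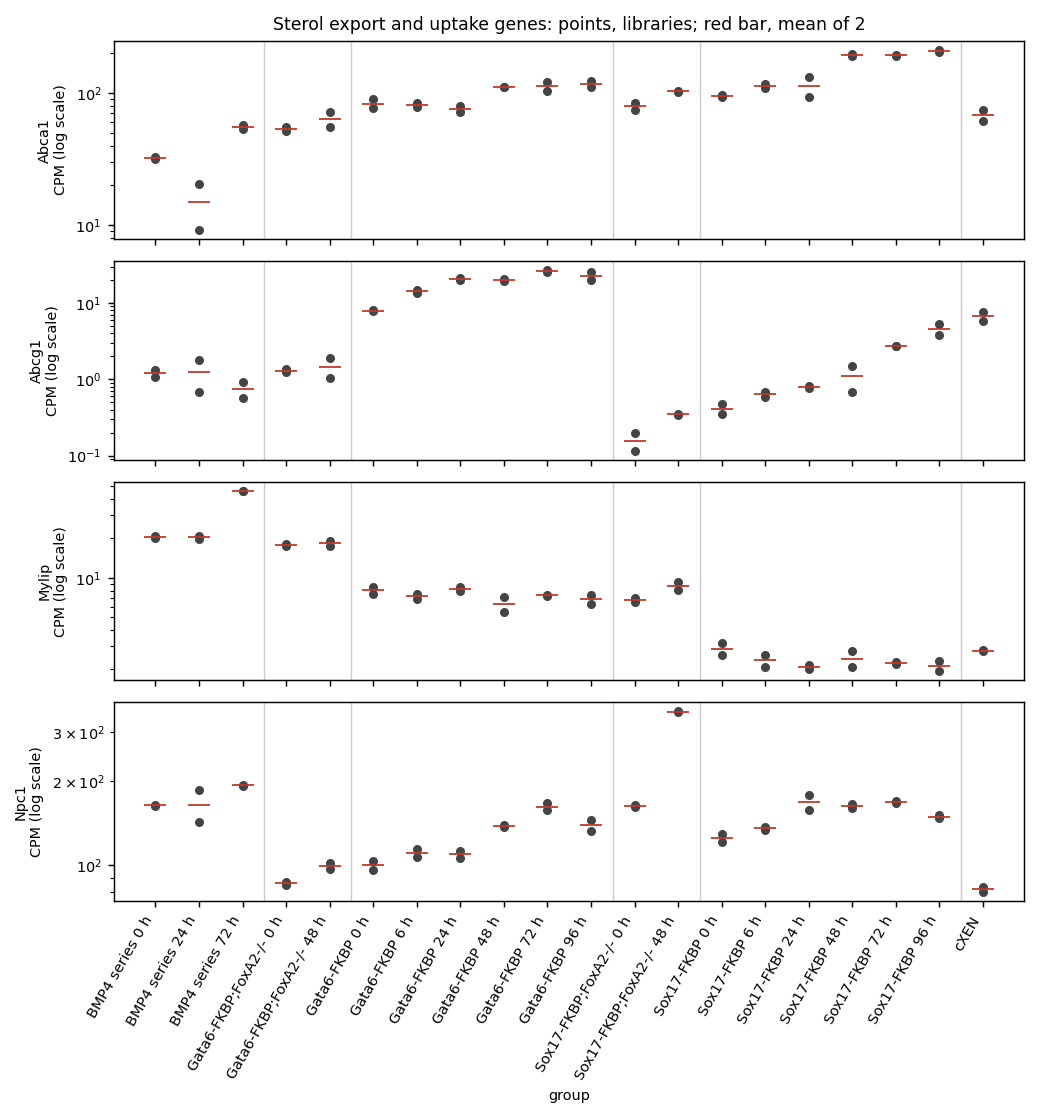
Levels in CPM (log axes) of Abca1, Abcg1, Mylip and Npc1 in all 20 groups, with a point per library and a red bar for the mean of 2. Abcg1 is highest in the Gata6 line after dTAGV1 and lowest in the FoxA2 mutant of the Sox17 line, Mylip is highest in BMP4 at 72 h, and Npc1 is highest in the FoxA2 mutant of the Sox17 line at 48 h.

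Other genes of the pathway were counted from lists of 23 further sterol genes, 16 of fatty acid synthesis and 14 that use isoprenoids, all of which passed the filter. In N2B27 with 1% serum against the Gata6 line, 12 of the 23 further sterol genes were higher and 4 lower, with a median of 0.28, below the 0.73 of the members. Fatty acid synthesis genes followed, with 10 of 16 higher and 2 lower (median 0.60), and of 14 isoprenoid users 7 were higher and 5 lower (median 0.05). Of all genes 41.5% were called there. At 48 h of dTAGV1 the further sterol genes showed 6 higher and 7 lower in the Gata6 line (median -0.12) and 6 higher and 8 lower in the Sox17 line (median -0.01). Fatty acid genes at 48 h showed 3 higher and 6 lower in the Gata6 line (median -0.03) and 3 higher and 8 lower in the Sox17 line (median -0.14). Isoprenoid users at 48 h showed 0 higher and 5 lower in the Gata6 line (median -0.23, against -0.18 over the members). In the Sox17 line they showed 2 higher and 1 lower (median -0.04). Of all genes 40.1% were called at 48 h in the Gata6 line and 30.9% in the Sox17 line. At 72 h of BMP4 the fatty acid genes showed 6 higher and 8 lower (median -0.20), and the further sterol genes 6 higher and 10 lower (median -0.11). Isoprenoid users then showed 1 higher and 6 lower (median -0.31), with 62.8% of all genes called. For the sterol enzymes among the members these were 9 of 11 lower and none higher at 48 h in the Sox17 line, with a median of -0.70. The lists were not tested against each other.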

How the data were processed

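RNA-seq counts of 40 libraries were used, and 14 chromatin samples were not analysed here. Per the submitters' processing notes, the authors used HISAT2 with the mm10 build, then HTSeq for counting; versions, annotation release and strand setting are not given in the sources used here. The deposited values are raw counts per Ensembl gene, and reads outside genes were kept apart from them at 3.84 to 9.46% of both together.

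Symbols came from an ID table that named 47224 of 47729 genes, and gene coordinates and promoters from RefSeq on GRCm38.p6, the assembly called mm10. All 40 libraries entered one quasi-likelihood model of edgeR 4.0.16 (R 4.3.3), which had 1 mean for each group, used TMM normalization and dropped low genes by filterByExpr (14625 genes, 20 residual degrees of freedom, biological coefficient of variation 8.22%). Calls used a Benjamini-Hochberg adjusted p under 0.05 over all genes tested in a comparison. A standard error is the log2 change over the square root of F. CPM use TMM-scaled library sizes. The procedure was tested on simulated counts that gave a gene the same dispersion in all groups, so unequal spread between groups was not tested.

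The members, lists, tests and rules were chosen with earlier results of these data known. The rule named, per comparison, up to 6 called members with the largest change, up to 4 for tests of a difference, and members whose role a paragraph describes. Replicate numbers did not pair libraries: same-numbered libraries deviated together at r over 0.1 in 1 of 21 pairs of groups (range -0.15 to 0.15). Each library was left out in turn, and other fits used DESeq2 1.42.0, size factors by median of ratios, all genes unfiltered, a replicate block, or the compared libraries alone. A covariate for reads outside genes (log2 of their ratio to gene reads) was added after the data were seen. Counting depth limits low genes such as Abcg1, Idi1 and Tm7sf2 most.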

Additional observations from a re-analysis of the deposited data

Results flagged for a closer look

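The members below had 48 h responses whose difference between backgrounds or lines passed the test of that difference (edgeR contrast of both changes, adjusted over all genes). Each response is the mean of 2 libraries over the mean of 2 libraries. For FoxA2 mutant minus not mutant in the Gata6 line, the log2 differences were 1.23 for Mvd, -1.14 for Abcg1, -0.99 for Insig1 and 0.93 for Ebp. For the same contrast in the Sox17 line they were -1.34 for Insig1, 0.93 for Acat2, 0.88 for Hsd17b7 and 0.86 for Cyp51. For the Gata6 line minus the Sox17 line they were 0.90 for Cyp51, -0.82 for Insig1, 0.59 for Hmgcs1 and 0.57 for Stard4. In fits that left out a library, the call was lost in 6 of 8 for Abcg1, 5 of 8 for Stard4 and 1 of 8 for Hmgcs1. The other differences listed kept their call in all such fits. Among the members listed here, Insig1 is the one present in all 3 comparisons. Its differences were negative, but the sign of the last only reflects taking the Gata6 line minus the Sox17 line, as Insig1 rose in both. Its 48 h change was -0.15 in the mutant of the Gata6 line and 0.31 in that of the Sox17 line, neither called, and 0.84 and 1.66 in the Gata6 and Sox17 lines without the mutation, both called. The 3 tests share libraries, so they are not independent.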

How the results depend on the processing

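Of 1568 values of 152 named changes under alternatives, 1453 kept direction and side of the threshold, 112 kept direction without the call and 3 turned, the last all with reads outside genes as a covariate (Abca1 -0.13 at 96 h in the Gata6 line and -0.45 at 72 h of BMP4, Stard4 -0.11 at 72 h of BMP4). Of 252 counts of members called, 223 stayed within 1.5 times and 29 did not, the cause not being tested. With that covariate the counts were 4 at 6 h and 14 at 48 h in the Gata6 line, 10 for 48 against 24 h, 5 at 6 h in the Sox17 line, 4 for BMP4 72 h against 0 h, 2 against 24 h, 8 in the Sox17 line mutant at 48 h and 8 for the Gata6 line difference. Fitted to only the libraries compared they were 10 and 2 at 6 and 24 h in the Sox17 line, 0 for BMP4 24 h, 11 in the Sox17 line mutant, 9 for the Gata6 line against parental cells and 23 for the Sox17 line difference. Without the filter 5 were called at 6 h in the Sox17 line, and DESeq2 called 4 in the Sox17 line mutant at 48 h. Leaving out a library gave 0 to 9 at 6 h and 1 to 10 at 24 h in the Gata6 line, 10 to 15 at 24 h in the Sox17 line, 1 to 1 in its mutant at 48 h and 4 to 8 for the difference of the lines. Replicate numbers did not pair libraries. The replicate block left 1 call in the Sox17 line mutant at 48 h and 6 named changes without a call.

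In the mutant of the Gata6 line, where edgeR called no member at 48 h, 5 of 31 had an unadjusted p under 0.05, and DESeq2 called 0. Depth limits the low genes, and 2 libraries a group limit all.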
